A study of Mus musculus with 6 samples.

Results

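The collagen genes are the genes whose symbol is Col, a type number, the letter a and a chain number. The rule found 44 of them among the 61880 rows of the deposited matrix, in 44 of its 53912 assembled loci. They comprise 11 chains of fibrillar collagens, 6 of type IV, 6 of type VI, 9 of fibril-associated collagens (FACIT), 4 of transmembrane collagens, 3 of short-chain network collagens, 2 of multiplexins, 1 of the anchoring fibril and 2 others. For 43 of them the value is the sum of all rows that share the gene's assembled locus. *Col20a1* shares its locus with *Arfgap1* and is given by its own row.

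RNA came from the epithelial fraction of inguinal mammary glands, taken at puberty (6 to 8 weeks of age) from female FVB/NJ mice. Transgenic *fat-1* mice carry a desaturase gene of *C. elegans* that converts n-6 into n-3 polyunsaturated fatty acids, and wildtype (WT) mice lack it. Mice of both genotypes were kept for life on the same modified AIN93G diet with 10% fat by weight (22% of kcal) from safflower oil. Each genotype has 3 samples, and each sample is a pool of mice rather than 1 animal. The transgene acts in the whole body and is not restricted to the mammary epithelium. Mammary glands were digested for many hours in collagenase and hyaluronidase in both genotypes, a step that cuts collagen protein, while the values below are of RNA.

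Collagens are proteins of the extracellular matrix built from alpha chains wound around each other. Fibrillar collagens such as types I, III and V give the stroma of a tissue its tensile strength and are made mainly by fibroblasts, whereas type IV forms the sheet-like network of basement membranes under epithelia and around vessels. In the mammary gland the epithelial ducts grow through this stroma during puberty, separated from it by a basement membrane that the myoepithelial (basal) cells touch. Several type IV genes lie head to head in the genome, so that the chains of a trimer are read outward from one shared start region.

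Upstream sequences of 6 collagen genes, 5 stretches in all, are shown because their levels divided the samples in opposite ways or because they lie in such shared start regions. They are read 5′ to 3′ on the gene's own strand in the RefSeq sequence of GRCm38.p6, in lower case and without annotated exons, and the capitals mark the TATA box letters TATAAA, the CAAT box letters CCAAT or the GC box letters GGGCGG on either strand. These 3 motifs do not overlap one another here. *Col4a4* and *Col4a3* share the whole stretch between their starts, and the sequence is given on the *Col4a4* strand.
*Col3a1*, chr1:45311288-45311537: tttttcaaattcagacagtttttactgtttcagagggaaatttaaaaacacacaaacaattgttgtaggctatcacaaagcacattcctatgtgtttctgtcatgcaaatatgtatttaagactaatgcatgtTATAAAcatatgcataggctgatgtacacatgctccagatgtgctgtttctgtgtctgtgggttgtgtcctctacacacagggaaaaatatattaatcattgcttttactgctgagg
*Col17a1*, chr19:47692095-47692292: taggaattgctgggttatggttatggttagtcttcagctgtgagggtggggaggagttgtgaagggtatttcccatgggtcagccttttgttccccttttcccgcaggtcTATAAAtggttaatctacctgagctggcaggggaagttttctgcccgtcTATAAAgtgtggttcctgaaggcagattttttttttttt
*Col4a6*, chrX:141474077-141474326: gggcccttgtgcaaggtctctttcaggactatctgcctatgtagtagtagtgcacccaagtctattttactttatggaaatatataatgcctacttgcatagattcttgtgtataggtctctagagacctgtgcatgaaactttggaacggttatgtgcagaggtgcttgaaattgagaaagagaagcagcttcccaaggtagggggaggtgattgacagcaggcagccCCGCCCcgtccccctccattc
*Col4a5*, chrX:141475169-141475384: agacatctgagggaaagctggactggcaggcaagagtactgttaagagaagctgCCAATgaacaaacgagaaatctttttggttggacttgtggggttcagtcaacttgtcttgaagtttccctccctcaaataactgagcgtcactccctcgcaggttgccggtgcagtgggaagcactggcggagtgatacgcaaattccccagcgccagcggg
*Col4a4* and *Col4a3*, chr1:82586850-82586920: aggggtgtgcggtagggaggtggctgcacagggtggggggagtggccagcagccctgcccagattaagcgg
*Col3a1* holds 1 TATAAA and *Col17a1* holds 2, *Col4a6* holds 1 GGGCGG read on the other strand, *Col4a5* holds 1 CCAAT, and the 71 bases between *Col4a4* and *Col4a3* hold none of the 3 motifs. Motifs were also counted over the whole 250 bases before each RefSeq start, bases of annotated exons included, for which the reference gave 38 windows for 35 of the 44 collagen genes. TATAAA stood in 5 of these windows (13.2%) and in 12.4% of all 32851 windows, CCAAT in 13 (34.2%, against 33.8%), and GGGCGG in 22 (57.9%, against 32.7%).

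Collagen RNA took up very different shares of the 6 samples. The 43 locus sums held 0.214%, 0.546% and 0.789% of all counts in *fat-1* samples 1, 2 and 3 and 0.399%, 0.719% and 0.651% in WT samples 1, 2 and 3. *fat-1* sample 1 was the lowest and *fat-1* sample 3 the highest, so the *fat-1* samples enclosed the whole range of the WT samples. Total counts ran from 204539059 to 232148824 per sample, and normalized levels are counts per 1000000 (CPM) after TMM scaling. At this depth 3 counts correspond to 0.0132 to 0.0146 CPM, and 33 of the 43 genes had a mean of at least 1 CPM.

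**Figure D1:**
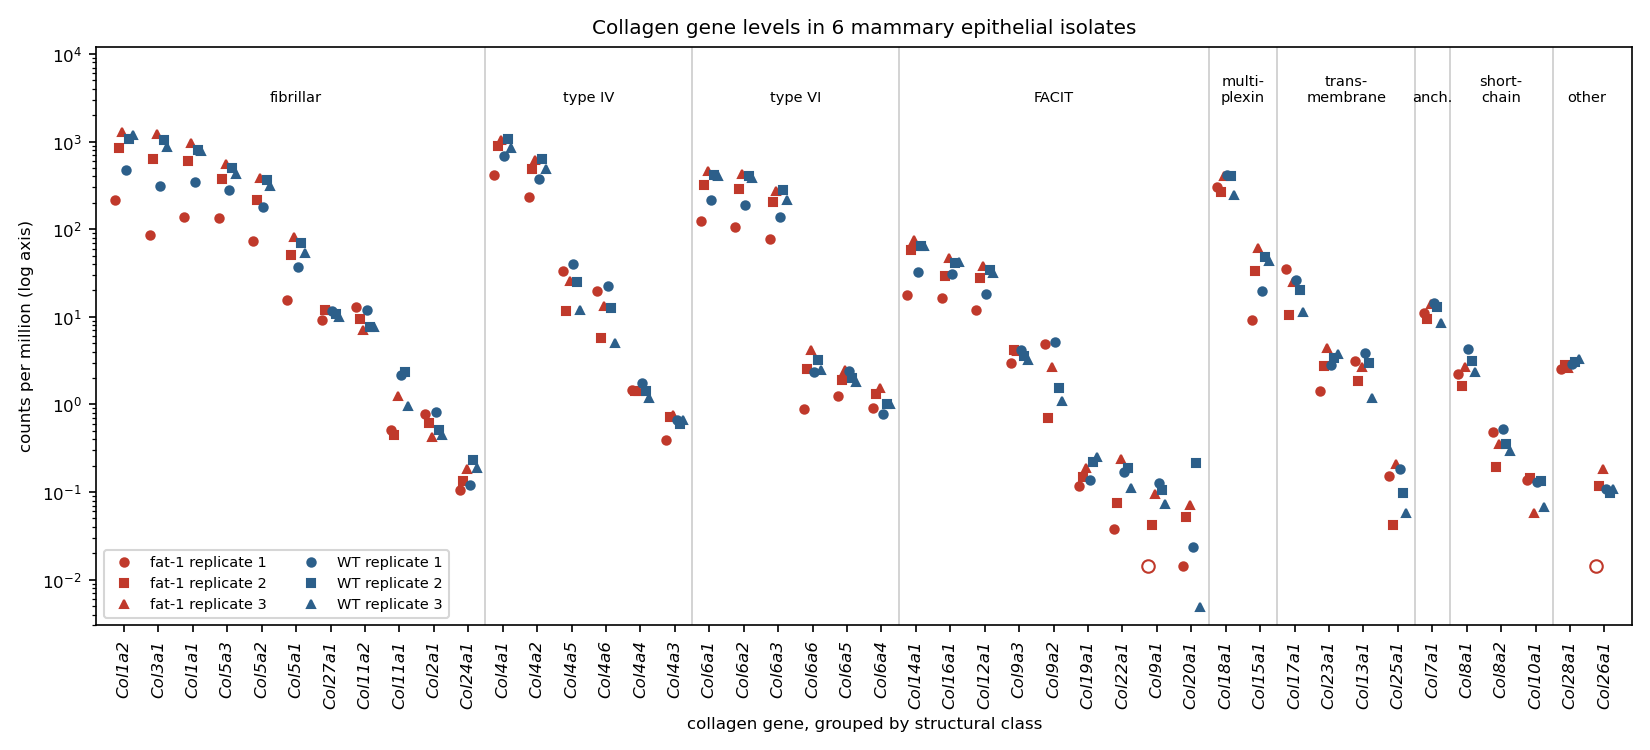
Levels of the 44 collagen genes in CPM on a log axis, grouped by structural class (anch., anchoring fibril), with 1 point per sample. Red points are *fat-1* and blue points WT samples, and open points mark a count of 0, drawn at the level of 3 counts. *fat-1* replicate 1 (red circles) is the lowest sample in 27 of the 43 genes given by locus sum. Levels run from 1277 CPM for *Col1a2* down to 0.00486 CPM for *Col20a1*, which is given by its own row.

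Compared per kilobase of transcript, the order of the mean levels over all 6 samples was led by *Col1a2* (157.8 CPM per kb), *Col3a1* (125.2), *Col4a1* (124.7) and *Col1a1* (102.1). *Col6a1* (79.0), *Col6a2* (75.9), *Col4a2* (72.9), *Col18a1* (71.0), *Col5a3* (61.9), *Col5a2* (38.6) and *Col6a3* (21.9) followed, and no other collagen reached 10 CPM per kb. Neighbours in the upper part of this order lay closer to each other than the spread of either over the samples. *Col1a2*, *Col4a1*, *Col3a1*, *Col1a1* and *Col4a2* together made up 51.0% to 64.5% of all collagen CPM in a sample. The lowest were *Col9a1* (0.0193 CPM per kb), *Col22a1* (0.0155) and, by its own row only, *Col20a1* (0.0126). That row of *Col20a1* held 1 to 48 counts, while a row without a symbol in its shared locus held 6360 to 8331. To which gene the latter belong was not tested, so the place of *Col20a1* in the order is uncertain.

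Comparing *fat-1* with WT mice, edgeR's quasi-likelihood test called 0 of the 43 genes at a threshold of 0.05, with Benjamini–Hochberg adjustment over the 24061 loci tested, of which 0% were called. At the unadjusted threshold 1 of the 43 passed, *Col11a1*, beside 1.14% of all loci, and 0.661% of all loci passed it with the lower level in *fat-1*, as *Col11a1* did. DESeq2's Wald test and edgeR's exact test also called 0 of the 43 after adjustment, where the exact test called 6 and DESeq2 8 (0.0332%) of all 24061 loci. The adjusted *p*-value of this quasi-likelihood test was 1.00 for every collagen gene. Of the 43 genes, 34 had a log2 fold change below 0 (lower in *fat-1*), beside 49.4% of all loci, and the median was -0.13 beside 0.00 over all loci. This majority depended most on *fat-1* sample 1, since without it 20 of the 43 genes were below 0 and the median was 0.08. Without WT sample 2 there were 26 (median -0.03) and without WT sample 1 27 (median -0.29). Leaving out any other sample gave 31 to 37. The samples of both genotypes overlapped in 42 of the 43 genes. Only *Col28a1* had no overlap, beside 4.15% of all loci.

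**Figure D2:**
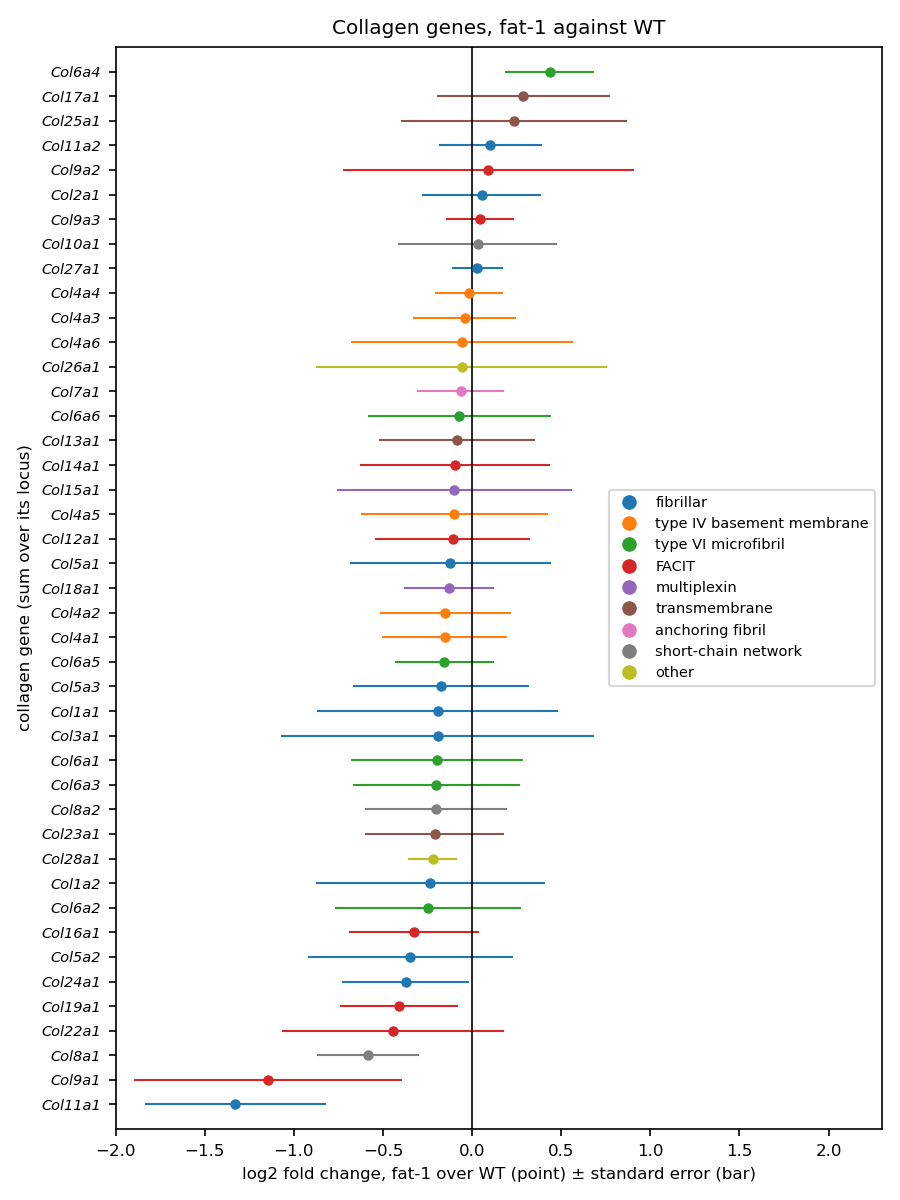
Log2 fold change of *fat-1* over WT (points) with its standard error (bars) for the 43 collagen genes given by locus sum, from edgeR's quasi-likelihood fit, coloured by structural class. Most points lie left of 0 with bars that reach across it, *Col11a1* lies farthest to the left at -1.33, and *Col6a4* farthest to the right at 0.44.

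Type I and type III chains, the main fibre collagens of stroma, had the widest ranges among abundant collagens. *Col1a2*, the second chain of type I collagen, measured 214, 835 and 1277 CPM across *fat-1* pools 1, 2 and 3 and 473, 1078 and 1186 CPM across WT pools 1, 2 and 3. *Col1a1*, its partner chain, measured 136, 604 and 954 CPM across *fat-1* pools and 344, 803 and 790 CPM across WT pools, in the same order. *Col3a1*, which forms thin reticular fibres, measured 86.8, 638 and 1225 CPM across *fat-1* pools and 314, 1040 and 876 CPM across WT pools. In all 3 genes the samples numbered 1 were the lowest of their genotype, *fat-1* sample 1 was the lowest of all, and the genotypes overlapped. The highest sample exceeded the lowest 14.1-fold for *Col3a1*, 7.02-fold for *Col1a1* and 5.96-fold for *Col1a2*. Against this spread, the log2 fold change of *fat-1* over WT was -0.24 ± 0.64 (SE, n = 3 per genotype) for *Col1a2*, -0.19 ± 0.68 for *Col1a1* and -0.19 ± 0.88 for *Col3a1*.

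Type V chains, which regulate the diameter of type I fibrils, also had the samples numbered 1 as the lowest of their genotype. *Col5a3* measured 134, 374 and 559 CPM across *fat-1* pools and 283, 494 and 428 CPM across WT pools. *Col5a2* measured 73.9, 217 and 385 CPM across *fat-1* pools and 178, 367 and 315 CPM across WT pools. Their log2 fold changes were -0.17 ± 0.49 and -0.35 ± 0.58 (SE), and *Col5a1* ran from 15.7 CPM in *fat-1* sample 1 to 81.8 CPM in *fat-1* sample 3.

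The remaining fibrillar genes were low. *Col11a1*, a minor fibrillar chain best known from cartilage, measured 0.517, 0.447 and 1.24 CPM across *fat-1* pools and 2.19, 2.36 and 0.968 CPM across WT pools. WT samples 1 and 2 were the highest and *fat-1* sample 3 lay above WT sample 3, so the genotypes overlapped. Its log2 fold change was -1.33 ± 0.51 (SE), with an unadjusted *p*-value of 0.0375 and an adjusted *p*-value of 1.00 by edgeR's quasi-likelihood test. The unadjusted call was lost without *fat-1* sample 1 or 2 and without WT sample 1 or 2. *Col11a2*, its partner in type XI collagen, measured 13.0, 9.43 and 7.04 CPM across *fat-1* pools and 12.1, 7.64 and 7.72 CPM across WT pools. The samples numbered 1 were its highest in both genotypes, and its log2 fold change was 0.10 ± 0.29 (SE). *Col27a1* stayed between 9.30 and 11.9 CPM. The cartilage collagen gene *Col2a1* (0.428 to 0.809 CPM) and *Col24a1* (0.104 to 0.234 CPM) were near the bottom of the class.

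Among the type IV genes, *Col4a1* and *Col4a2* were low in the samples numbered 1, like the stromal collagens, and *Col4a5* and *Col4a6* were high there. *Col4a3* was in neither group. *Col4a4* was also highest there, but by a small margin (1.46 CPM in *fat-1* sample 1 and 1.43 in WT sample 2). *Col4a1*, with *Col4a2* the ubiquitous chain of basement membranes, measured 411, 892 and 1040 CPM across *fat-1* pools and 687, 1077 and 841 CPM across WT pools. *Col4a2* measured 235, 484 and 619 CPM across *fat-1* pools and 373, 629 and 484 CPM across WT pools. *Col4a5*, a chain of more restricted basement membranes, measured 33.7, 11.8 and 25.6 CPM across *fat-1* pools and 39.7, 24.6 and 11.8 CPM across WT pools. *fat-1* sample 1 and WT sample 1 were therefore the lowest of their genotype for *Col4a1* and *Col4a2* and the highest of their genotype for *Col4a5*. *Col4a6*, which pairs with *Col4a5*, ran in the order of *Col4a5* within each genotype, from 5.08 CPM in WT sample 3 to 22.6 CPM in WT sample 1. The log2 fold changes were -0.15 ± 0.35 (SE) for *Col4a1*, -0.15 ± 0.37 for *Col4a2* and -0.10 ± 0.52 for *Col4a5*, with the genotypes overlapping in each. *Col4a3* (0.389 to 0.764 CPM) and *Col4a4* (1.19 to 1.73 CPM), chains best known from the kidney glomerulus, were low and varied little.

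Type VI collagen forms beaded microfibrils next to cells, and its 3 main chains spread 3.62- to 4.05-fold over the samples. *Col6a1* measured 125, 322 and 459 CPM across *fat-1* pools and 214, 417 and 407 CPM across WT pools. *Col6a2* measured 106, 287 and 429 CPM across *fat-1* pools and 189, 407 and 380 CPM across WT pools. *Col6a3* measured 76.5, 202 and 270.0 CPM across *fat-1* pools and 139, 277 and 215 CPM across WT pools. Again the samples numbered 1 were the lowest and the genotypes overlapped, with log2 fold changes of -0.20 ± 0.48, -0.25 ± 0.52 and -0.20 ± 0.47 (SE). *Col6a4*, a chain that can stand in for *Col6a3*, measured 0.920, 1.30 and 1.55 CPM across *fat-1* pools and 0.771, 1.00 and 1.01 CPM across WT pools. It had the highest log2 fold change of all collagens at 0.44 ± 0.25 (SE) and an unadjusted *p*-value of 0.130 by edgeR's quasi-likelihood test, and *fat-1* sample 1 lay below WT samples 2 and 3. *Col6a5* (1.23 to 2.45 CPM) and *Col6a6* (0.887 to 4.19 CPM) were of similar size.

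The named collagens that sit on the surface of fibrils or at the edge of the basement membrane had intermediate levels, except for the abundant *Col18a1*. *Col14a1* measured 17.8, 58.1 and 75.0 CPM across *fat-1* pools and 32.5, 64.2 and 64.7 CPM across WT pools, and the related FACIT genes *Col16a1* (16.4, 29.2 and 46.4 against 31.1, 41.6 and 42.7 CPM) and *Col12a1* (12.05, 28.0 and 37.5 against 18.2, 34.0 and 31.4 CPM) also had their lowest value in *fat-1* sample 1. *Col15a1*, a multiplexin of the basement membrane zone, measured 9.22, 33.3 and 61.0 CPM across *fat-1* pools and 19.9, 47.6 and 43.4 CPM across WT pools. *Col18a1*, the other multiplexin and the source of endostatin, measured 304, 263 and 407 CPM across *fat-1* pools and 419, 403 and 244 CPM across WT pools. *Col15a1* thus spread 6.61-fold over the samples and *Col18a1* 1.72-fold, and the genotypes overlapped in both. *Col7a1*, the anchoring fibril collagen, measured 11.1, 9.33 and 13.9 CPM across *fat-1* pools and 14.5, 12.9 and 8.48 CPM across WT pools.

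*Col17a1*, a transmembrane collagen of the hemidesmosomes that hold basal epithelial cells to the basement membrane, measured 35.4, 10.4 and 24.8 CPM across *fat-1* pools and 26.0, 20.4 and 11.4 CPM across WT pools. *fat-1* sample 1 was the highest and *fat-1* sample 2 the lowest, and WT samples lay between them. Its log2 fold change was 0.29 ± 0.49 (SE). The other transmembrane collagens were *Col13a1* (3.10, 1.83 and 2.68 against 3.86, 3.01 and 1.19 CPM), *Col23a1* (1.44 to 4.41 CPM over all samples) and *Col25a1* (0.152, 0.0419 and 0.207 against 0.182, 0.0971 and 0.0584 CPM), and the log2 fold change of *Col25a1* was 0.23 ± 0.63 (SE).

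*Col28a1*, a collagen with von Willebrand factor domains, was the only collagen whose genotypes did not overlap. It measured 2.55, 2.82 and 2.61 CPM across *fat-1* pools and 2.92, 3.08 and 3.32 CPM across WT pools. All *fat-1* samples lay below all WT samples by a small margin, with a log2 fold change of -0.22 ± 0.14 (SE) and an unadjusted *p*-value of 0.158 by edgeR's quasi-likelihood test. *Col8a1*, a network collagen of vessel walls, measured 2.21, 1.64 and 2.67 CPM across *fat-1* pools and 4.30, 3.12 and 2.36 CPM across WT pools. *fat-1* sample 3 lay above WT sample 3, and the log2 fold change was -0.58 ± 0.29 (SE), with an unadjusted *p*-value of 0.0853 by the same test.

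The rarest collagens came down to few counts. *Col9a1*, a cartilage FACIT chain, had 0 counts in *fat-1* sample 1, which allows up to 0.0142 CPM, and 0.0419 and 0.0962 CPM in *fat-1* samples 2 and 3 against 0.126, 0.106 and 0.0730 CPM across WT pools. Its fitted log2 fold change was -1.14 ± 0.75 (SE) and ran from -2.24 to -0.56 as single samples were left out, and *fat-1* sample 3 lay above WT sample 3. *Col26a1* also had 0 counts in *fat-1* sample 1, with 0.117 and 0.183 CPM in the other *fat-1* samples and 0.108, 0.0971 and 0.107 CPM across WT pools. *Col8a2* measured 0.479, 0.191 and 0.351 CPM across *fat-1* pools and 0.528, 0.353 and 0.292 CPM across WT pools. *Col10a1* (0.0577 to 0.144 CPM), *Col19a1* (0.119 to 0.248 CPM), *Col22a1* (0.0379 to 0.236 CPM) and, by its own row only, *Col20a1* (0.00486 to 0.212 CPM) were also below 1 CPM in every sample. *Col9a2* (0.694 to 5.12 CPM) and *Col9a3* (2.99 to 4.19 CPM) were higher than their partner *Col9a1*. *Col9a3* overlaps exons of *Tcfl5* on the opposite strand, so its counts may hold reads of that gene.

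The order of the samples thus cut across the genotypes. In 18 of the 43 genes (41.9%) *fat-1* sample 1 and WT sample 1 were the 2 lowest samples, beside 18.9% of all loci. These 18 include all type I, III and V chains, *Col4a1*, *Col4a2*, *Col6a1*, *Col6a2*, *Col6a3*, *Col12a1*, *Col14a1* and *Col15a1*. In 9 genes (20.9%) the same samples were the 2 highest, beside 20.3% of all loci. These 9 were *Col2a1*, *Col4a4*, *Col4a5*, *Col4a6*, *Col8a2*, *Col9a2*, *Col11a2*, *Col13a1* and *Col17a1*. *fat-1* sample 1 was the single lowest sample in 27 of the 43 genes, beside 25.2% of all loci.

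Markers of the cell types an isolate can hold also differed between the samples, and their part in the order of the samples was not tested. The summed level of 6 luminal epithelial markers (*Krt8*, *Krt18*, *Krt19*, *Epcam*, *Cldn3* and *Cldn4*) was 4136 CPM in *fat-1* sample 1 and 3117 CPM in WT sample 1 and between 929 and 1795 CPM in the other samples, so RNA of these markers was measured in every isolate at different levels. The 5 basal markers summed to between 74.7 and 381 CPM in *fat-1* and between 73.1 and 279 CPM in WT samples. The 8 fibroblast markers, among them *Dcn*, *Lum* and *Pdgfra*, summed to between 1336 and 3333 CPM in *fat-1* and between 2570 and 3394 CPM in WT samples, with *fat-1* sample 1 the lowest of all. This sum was above the luminal one in samples 2 and 3 of both genotypes and below it in the samples numbered 1. The lists hold different numbers of genes, and *Dcn* alone ran from 898 to 2080 CPM. Which sum is larger therefore does not show which cell type was more common. The 5 immune markers that could be used ran from 360 to 893 CPM in *fat-1* and from 369 to 927 CPM in WT samples. The 5 endothelial markers in use (187 to 230 against 205 to 252 CPM), the 7 pericyte and smooth muscle markers (144 to 271 against 140 to 247 CPM), the 4 Schwann cell markers (16.9 to 40.5 against 17.2 to 52.2 CPM) and the 5 adipocyte markers (84.5 to 107 against 113 to 127 CPM) completed the lists. The adipocyte sum was nearly all *Fabp4*, while *Lep* was at 0 in WT sample 3. Of the 5 adipocyte markers, 2 had a log2 fold change below 0 and 3 above it. *Fabp4* was lower in every *fat-1* sample (83.2 to 106 CPM) than in every WT sample (112 to 126 CPM). Among the endothelial markers, *Cdh5* (72.8 to 79.5 against 79.9 to 101 CPM) and *Tie1* (11.8 to 12.4 against 12.6 to 16.7 CPM) were also lower in every *fat-1* sample. The genotypes overlapped for *Pecam1*, *Kdr* and *Emcn*. Of all loci, 4.15% had genotypes that did not overlap, and 2.36% did so with the lower level in *fat-1*. The unadjusted *p*-value of *Fabp4* was 0.0370 in edgeR's fit, beside 1.14% of all loci at the unadjusted threshold, and its adjusted *p*-value was 1.00. With the fibroblast marker level as a covariate in edgeR's fit, 22 of the 43 collagens were below 0 instead of 34, beside 53.8% of all loci, and the median log2 fold change was -0.05. With the epithelial marker level as the covariate, 32 of the 43 were below 0, beside 50.3% of all loci, and the median was -0.17. In such pooled isolates, fewer cells of a type and less RNA per cell cannot be told apart.

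Relations between a single collagen and a single marker gene were computed over the 6 samples on log2(CPM + 1), and 6 such pairs were examined. *Col17a1* followed *Krt14*, a keratin of basal epithelial cells, with Pearson's r = 0.971 and Spearman's rho = 1.00 (two-sided exact permutation *p* = 0.00278 for each, 0.0167 after Benjamini–Hochberg adjustment over the 6 relations). Without the 2 samples farthest from the median of *Krt14*, r was 0.937, and r was 0.970 within the *fat-1* and 0.975 within the WT samples. Among the other basal markers, *Krt5* and *Krt17* were also highest in *fat-1* sample 1, whereas *Trp63* and *Oxtr* were highest in WT sample 1 (13.4 and 9.57 CPM). The luminal markers other than *Krt19* were highest in *fat-1* sample 1 as well. Whether the relation is particular to basal cells was not tested. *Col1a1* with *Dcn*, a fibroblast proteoglycan that binds collagen fibrils, gave r = 0.873 and rho = 0.771 (exact permutation *p* = 0.103 for each, adjusted *p* = 0.227 and 0.308). That relation rested on the extreme samples, since r was 0.303 without *fat-1* sample 1 and WT sample 2. Within the *fat-1* samples r was 0.985, and within the WT samples it was 0.286. *Col15a1* with *Pecam1*, a marker of endothelium, gave r = 0.720, *Col4a1* with *Pecam1* r = 0.634, *Col1a1* with the leukocyte gene *Ptprc* r = 0.620 and *Col18a1* with *Krt14* r = 0.539. Of these 4, the rho values were 0.543, 0.429, 0.429 and 0.60, and by locus sums none reached an exact permutation *p* under 0.1. By named rows *Col15a1* with *Pecam1* gave r = 0.798 (exact permutation *p* = 0.025, adjusted *p* = 0.075) and *Col1a1* with *Ptprc* gave r = 0.861 (exact permutation *p* = 0.0806, adjusted *p* = 0.161).

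**Figure D3:**
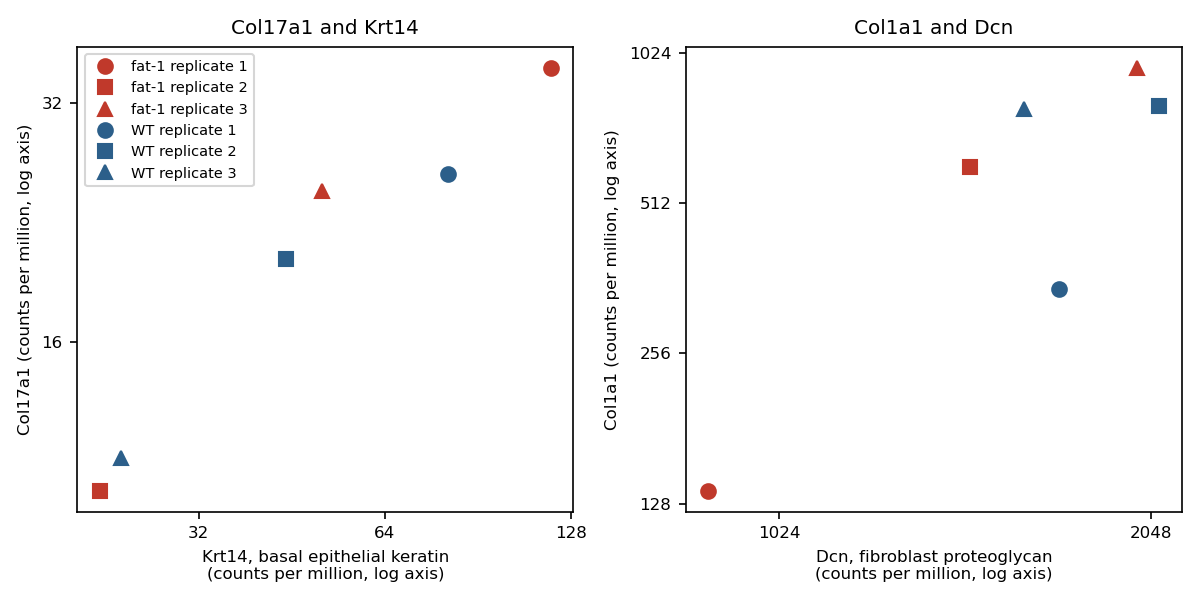
Left, *Col17a1* against the basal keratin gene *Krt14*, and right, *Col1a1* against the fibroblast gene *Dcn*, in CPM on log axes with 1 point per sample (red, *fat-1* and blue, WT). *Col17a1* and *Krt14* put the 6 samples in the same order, while *fat-1* replicate 1 lies alone at the lower left of the right panel.

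The ratio of 2 chains spread much less over the samples than the chains themselves for type I, for *Col5a1* with *Col5a2*, for the 3 main type VI chains and for *Col4a1* with *Col4a2*, but not for every collagen. Per kilobase of transcript, *Col1a1* stood to *Col1a2* at 0.573 to 0.674 over the 6 samples, a spread of 1.18-fold for chains that themselves varied 7.02- and 5.96-fold. *Col4a1* stood to *Col4a2* at 1.64 to 1.80, a spread of 1.10-fold. *Col6a1* stood to *Col6a2* at 0.985 to 1.14 and *Col6a3* to *Col6a1* at 0.240 to 0.303. The 2 type I chains, the 3 main type VI chains and *Col4a1* with *Col4a2* thus kept close to a fixed proportion from isolate to isolate. *Col5a1* stood to *Col5a2* at 0.136 to 0.183. This was the only one of the 7 ratios whose genotypes did not overlap, higher in all *fat-1* samples by 0.21 on the log2 scale, with an exact permutation *p* of 0.1, which is the smallest that 3 against 3 samples can give, and an adjusted *p*-value of 0.7. By named rows in place of sums its direction turned, with a difference of -1.06. *Col3a1* stood to *Col1a1* at 0.680 to 1.38, a spread of 2.03-fold between chains of different collagens. Within type IV, *Col4a5* stood to *Col4a1* at 0.0134 to 0.0832, a 6.22-fold spread. Among the low chains *Col9a2* spread 7.38-fold over the samples and its partner *Col9a3* 1.40-fold. *Col9a3* shares 234 exonic bases (6.07% of its exonic length) with *Tcfl5* on the opposite strand, where reads cannot be told apart without strand.

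**Figure D4:**
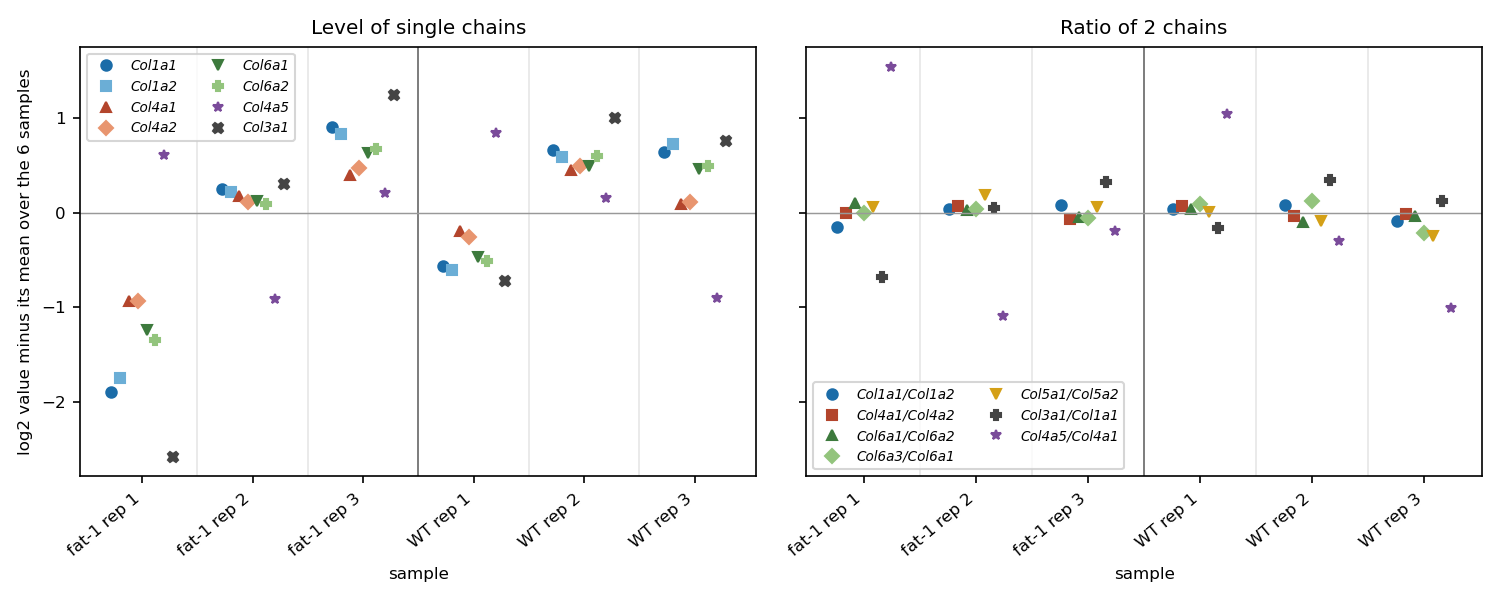
Log2 level of single collagen chains (left) and log2 ratio of 2 chains (right) in each sample, each minus its own mean over the 6 samples, on a common vertical scale. Chains spread over more than 1 log2 unit in the left panel, whereas the ratios of *Col1a1* to *Col1a2*, *Col4a1* to *Col4a2* and *Col6a1* to *Col6a2* stay near 0 in the right panel and that of *Col4a5* to *Col4a1* does not.

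Genes that lie next to each other did not all go together. In GRCm38, *Col4a1* (chr8:11198423-11312826) and *Col4a2* (chr8:11312805-11449287) are read away from each other and overlap by 22 bases at their starts, so reads there cannot be told apart without strand. *Col4a6* (chrX:141165403-141474076) and *Col4a5* (chrX:141475385-141689234), whose upstream sequences are printed above, start 1308 bases apart, and the ratio of their CPM spread 1.36-fold while *Col4a6* itself spread 4.45-fold. *Col4a4* (chr1:82448423-82586849) and *Col4a3* (chr1:82586921-82722059) start on either side of the 71 printed bases, and their ratio spread 2.09-fold at levels of about 1 CPM. *Col3a1* (chr1:45311538-45349706) and *Col5a2* (chr1:45374321-45503282) end toward each other 24614 bases apart, and their ratio spread 2.71-fold.

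Genes that act on collagen showed no call either. Among 31 processing enzymes and chaperones that could be used, 0 passed the adjusted threshold by edgeR's quasi-likelihood test (0% of all loci) or by DESeq2 (0.0332%). By the quasi-likelihood test 0 passed the unadjusted threshold, beside 1.14% of all loci. Of the 31 genes, 26 were below 0, beside 49.4% of all loci, and the median log2 fold change was -0.18. Their summed level was lowest in *fat-1* sample 1 (1781 CPM), and the part of that sample in this majority was not tested. *Serpinh1*, the collagen chaperone HSP47, measured 276, 431 and 519 CPM across *fat-1* pools and 467, 571 and 326 CPM across WT pools. *P4ha1*, a prolyl hydroxylase subunit, measured 121, 188 and 159.5 CPM across *fat-1* pools and 168, 199.7 and 152 CPM across WT pools. *Lox*, which crosslinks collagen, measured 13.5, 28.2 and 31.5 CPM across *fat-1* pools and 23.5, 32.1 and 33.7 CPM across WT pools. *fat-1* sample 1 was the lowest for all 3 genes, and the genotypes overlapped. The smallest unadjusted *p*-values of this list belonged to the galactosyltransferase gene *Colgalt2* (0.152, mean 0.516 CPM in *fat-1* and 0.334 CPM in WT), *P4hb* (0.246, 393 and 436 CPM) and *Crtap* (0.253, 37.2 and 43.1 CPM) in edgeR's fit.

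Of the 8 collagen receptor genes in use, 7 were tested, and the median log2 fold change was -0.02. By edgeR's quasi-likelihood test 0 passed the adjusted or the unadjusted threshold, beside 0% and 1.14% of all loci. *Ddr1*, a receptor tyrosine kinase of epithelia, measured 115, 35.9 and 68.5 CPM across *fat-1* pools and 102, 63.7 and 36.9 CPM across WT pools. *Ddr2*, its relative in stromal cells, measured 146, 325 and 337 CPM across *fat-1* pools and 251, 358 and 253 CPM across WT pools. The samples numbered 1 were thus the highest of their genotype for *Ddr1*, as for *Col17a1*, and the lowest for *Ddr2*, as for *Col1a1*. The smallest unadjusted *p*-values were those of *Itga2* (0.348, mean 80.6 CPM in *fat-1* and 60.4 CPM in WT), *Mrc2* (0.629, 32.4 and 37.9 CPM) and *Lair1* (0.735, 0.511 and 0.475 CPM) in edgeR's fit.

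How the counts of a collagen gene were divided between rows changed its apparent difference. For 13 genes the locus held a row with the symbol and a row without one, and the share of the named row differed between samples. *Col6a3* is the extreme case. Its named row held 513, 1418 and 1715 counts in *fat-1* samples 1, 2 and 3 and 917, 31718 and 1278 counts in WT samples 1, 2 and 3. WT sample 2 stood alone because its named row held 50.5% of the locus, against 2.90% to 3.26% in the other samples. The named row gave a log2 fold change of -3.12 ± 1.46 (SE) with an unadjusted *p*-value of 0.0774 and an adjusted *p*-value of 1.00 by edgeR's quasi-likelihood test, whereas the locus sum gave -0.20.

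*Col5a2* and *Col5a3* followed, with log2 fold changes of 0.80 ± 0.69 and 0.37 ± 0.61 (SE) by the named row against -0.35 and -0.17 by the sum. The named row of *Col5a2* held at least 99.99% of the locus in WT sample 1 and every *fat-1* pool but 42.9% in WT sample 2 and 16.4% in WT sample 3. For *Col1a1* the named row held 65.3% in *fat-1* sample 3 and 61.3% in WT sample 1 and the whole locus elsewhere, and for *Col4a2* it held 45.1% in WT sample 3. For *Col4a5* and *Col7a1* the named row never held more than 7.12% and 5.197%, so their sums rest on the row without a symbol. The named row and the locus sum gave opposite signs for 6 of the 13 genes, and the median absolute difference between them was 0.21 on the log2 scale. By named rows 0 of the 44 collagens passed the adjusted threshold in edgeR's quasi-likelihood test, as did 0% of the 30683 rows tested, and 1 (*Col11a1*) passed the unadjusted one, beside 2.21% of rows. The exact test of edgeR called 0 collagens and 0.104% of rows, and gave *Col6a3* an unadjusted *p*-value of 0.0260 and an adjusted *p*-value of 1.00. DESeq2 called 0 collagens and 0.303% of rows, and returned no *p*-value for the named rows of *Col6a3* and *Col16a1*.

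**Figure D5:**
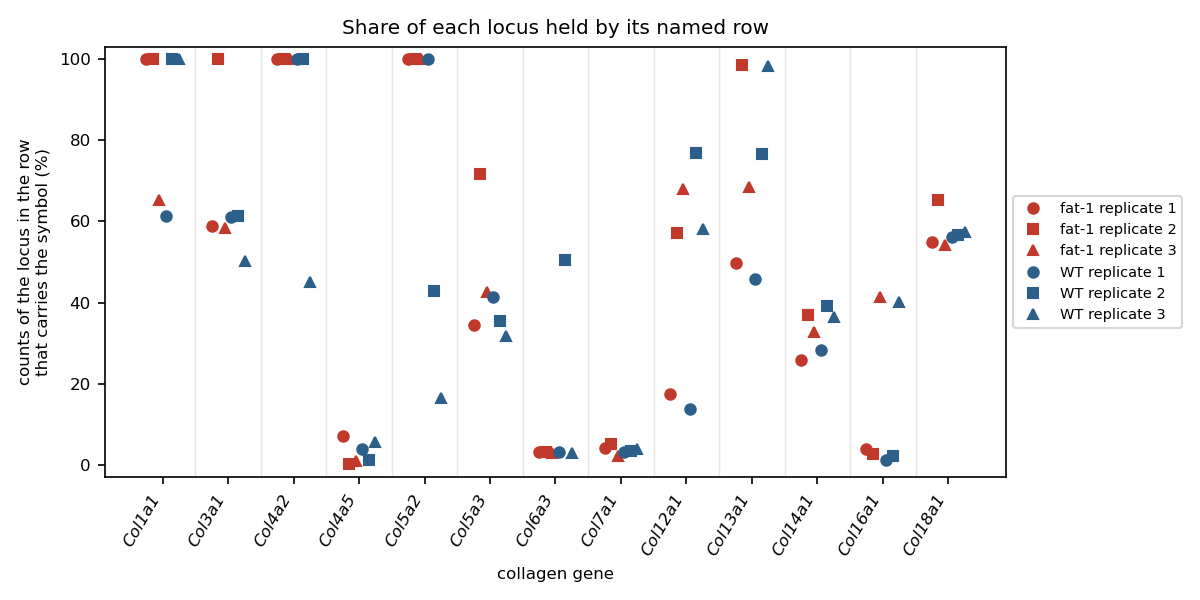
Percent of the counts of a collagen locus that stand in the row carrying the gene symbol, for the 13 genes with a further row without a symbol and 1 point per sample (red, *fat-1* and blue, WT). *Col6a3* is near 3% in 5 samples and at 50.5% in WT replicate 2, and *Col5a2* is near 100% in 4 samples and lower in WT replicates 2 and 3.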

How the data were processed

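Bulk RNA-seq covered 6 pools of mammary epithelial isolates (3 *fat-1*, 3 WT), which were grouped by the sample labels. The methods give 2 to 3 mice per pool in one place and 6 to 8 pooled mice in another, so the number behind a sample is uncertain, and *p*-values measure the spread between pools, not between mice. Lymph nodes were removed before digestion. The authors aligned reads to GRCm38 with HISAT2, assembled transcripts with StringTie and deposited estimated counts, whole numbers that had not been normalized. Versions, annotation, strand setting and the step from coverage to counts are not given in the sources used here. Rows of one assembled locus were added together, because assembly splits the reads of a gene between a row with its symbol and a row without. *Col20a1* and list genes with more than 10% of the locus counts in other symbols were kept out of such sums (*Colgalt1*, *Itga1*, *Itga10*, *Egfl7*, *Cd79a* and *Cd68*).

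Total counts per sample were 204539059 to 232148824, so that 3 counts are worth 0.0132 to 0.0146 CPM. Levels are CPM on TMM-scaled library sizes. *fat-1* was compared with WT by the quasi-likelihood test of edgeR 4.0.16 (R 4.3.3, filterByExpr, genotype as the only term, Benjamini–Hochberg adjustment over all loci, threshold 0.05). Standard errors were obtained by dividing a log2 fold change by the root of its F value. Ratios of chains and relations were tested by two-sided exact permutation. DESeq2 1.42.0, edgeR's exact test, the older fit, other scalings, no filter, a replicate block, marker covariates, named rows and leaving out each sample were the alternatives. Scripts were tested on simulated data. Samples of one genotype differed by far more than sampling noise, so none was counted as a repeat of another. Lengths and positions are from the principal transcripts of GENCODE M21 (GRCm38), and upstream sequences are from RefSeq. A count of 0 is given with the level that 3 counts allow, which covers counting error only.

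The collagen genes and the lists were chosen with earlier results of these data known. Values in every sample are given for the 3 collagens of highest level per kilobase in each class (2 in classes of under 6 genes), the 4 with the smallest *p*-value in each direction, the 3 whose named row and sum differ most, *Col11a1* and *Col6a3*, and other collagens by their range. Of each further list, the 3 genes with the smallest *p*-value and *Serpinh1*, *Lox*, *P4ha1*, *Ddr1* and *Ddr2* are named. Other steps ran in Python 3.11.15 (scipy 1.17.1, pandas 2.3.3, numpy 2.4.6), with plots by matplotlib 3.10.9.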

Additional observations from a re-analysis of the deposited data

How the results depend on the processing

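Each genotype has 3 samples, and *Col9a1* and *Col26a1* had 0 counts in *fat-1* sample 1. No collagen gene passed the adjusted threshold under any alternative run by locus sums or named rows, where DESeq2 gave no *p*-value for the named rows of *Col6a3* and *Col16a1*. The median log2 fold change of the collagens ran from -0.48 to 0.08 by locus sums and from -0.35 to 0.07 by named rows as each sample was left out, and it was above 0 by locus sums only without *fat-1* sample 1. At the unadjusted threshold, locus sums gave 2 genes with the fibroblast marker covariate (*Col6a4* and *Col11a1*), 2 with the epithelial marker covariate (*Col8a1* and *Col11a1*) and 0 to 4 without single samples, and named rows gave 2 by the exact test (*Col6a3* and *Col11a1*) and 0 to 3 without single samples. Processing enzymes gave 0 to 1.

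The replicate numbers did not pair the samples throughout. Deviations of the samples sharing number 1, 2 or 3 correlated at 0.874, -0.176 and 0.226 over 5000 loci. Those of *fat-1* sample 2 and WT sample 3, which do not share a number, correlated at 0.835. With the replicate number as a block, 0 collagens passed the unadjusted threshold by locus sums and 1 (*Col1a1*) by named rows.

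The sign of many small differences depended on single samples, and none of these values was called. Leaving out single samples gave log2 fold changes of -0.80 to 0.28 for *Col1a1*, -0.80 to 0.22 for *Col1a2*, -1.04 to 0.33 for *Col3a1*, -0.42 to 0.16 for *Col4a1*, -0.46 to 0.16 for *Col4a2*, -0.44 to 0.38 for *Col4a5*, -0.98 to 0.075 for *Col5a2*, -0.66 to 0.22 for *Col5a3*, -0.63 to 0.18 for *Col6a1*, -0.73 to 0.14 for *Col6a2*, -0.59 to 0.18 for *Col6a3*, -0.14 to 0.36 for *Col11a2*, -0.13 to 0.64 for *Col17a1* and -0.23 to 0.76 for *Col25a1*. The range was -1.93 to -1.07 for *Col11a1*, -2.24 to -0.56 for *Col9a1*, -0.76 to -0.33 for *Col8a1* and 0.26 to 0.63 for *Col6a4*. The log2 ratio of *Col1a1* to *Col1a2* differed between genotypes by -0.072 to 0.047, that of *Col3a1* to *Col1a1* by -0.42 to 0.089, *Col4a1* to *Col4a2* by -0.041 to 0.027, *Col4a5* to *Col4a1* by -0.55 to 0.76 and *Col6a3* to *Col6a1* by -0.11 to 0.057.

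With the fibroblast marker covariate, the log2 fold change turned to 0.043 for *Col1a1*, 0.020 for *Col1a2*, 0.039 for *Col3a1*, 0.023 for *Col4a1*, 0.039 for *Col4a2*, 0.018 for *Col5a3*, 0.039 for *Col6a1*, 0.0060 for *Col6a2*, 0.029 for *Col6a3* and -0.089 for *Col11a2*. By named rows in place of sums it turned to 0.15 for *Col3a1*, 0.13 for *Col4a2*, 0.028 for *Col4a5*, 0.80 for *Col5a2* and 0.37 for *Col5a3*, and the differences of the log2 ratios turned to 0.0074 for *Col1a1* to *Col1a2*, 0.058 for *Col3a1* to *Col1a1*, -1.61 for *Col4a5* to *Col4a1* and -1.06 for *Col5a1* to *Col5a2*. The cause of these turns was not tested.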
